A study of Homo sapiens with 39 samples.

Results

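Clone 2 of the CHP-134 TRIM37 mutants was compared with clone 1, to show how far 2 clones of the same line with the same labelled genotype differ in their transcripts. The comparison covers 12579 of the 23710 genes in the deposited tables, which are those with a usable status (Status OK) in the tables of both clones. It rests on 6 of the 39 libraries of the series, 3 of clone 1 and 3 of clone 2, each set against the same 3 wild type CHP-134 libraries by the authors. CHP-134 is a human neuroblastoma line. Clone 1 and clone 2 are both labelled as a partial TRIM37 knockout and none of the 9 libraries had a drug. All were grown in RPMI with 10% serum and antibiotics. Each mutant group is 1 clone, so what separates the groups cannot be told apart from what separates any 2 clones of the line. The labels do not say that the replicates were separate cultures, so the p-values may measure technical spread only.

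TRIM37 is a RING-type ubiquitin ligase that restrains the assembly of centriole-free microtubule organising centres. Neuroblastoma arises from the sympathetic branch of the neural crest. Its cells occupy an adrenergic state, held by transcription factors such as HAND2 and GATA3, or a mesenchymal state rich in matrix and adhesion genes, and single lines can hold both. A clone is grown from 1 cell, so it carries forward whatever expression state, imprint of chromatin or chromosome content that cell had.

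The files hold 1 table per comparison with wild type and no value per library. The quantity used throughout is therefore the difference, the log2 fold change of clone 2 against wild type minus that of clone 1 against wild type. It was tested against the root of the summed squared standard errors (SE) with a two-sided normal p-value. The p-values were adjusted by the Benjamini-Hochberg method over all 12579 genes, and a gene was called at an adjusted p under 0.05. Because both tables use the same wild type libraries, the wild type term would drop out of a difference of plain fold changes. Its spread is counted in both SEs, which widens the SE of the difference. The deposited fold changes appear to be pulled towards 0, each by its own factor. Where the factors of the 2 tables differ, the wild type term drops out only in part. Levels are given for the 3 groups as normalised counts on the scale of the clone 1 table. They were computed from the mean count and fold change of each table, so each is a group mean without a spread of its own.

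Of the 12579 genes, 2580 were called (20.5%). Clone 2 was higher in 1169 (9.29%) and lower in 1411 (11.2%), and the median difference over all genes was -0.002. Without differences the statistics would have a central spread of 1, or less here, because wild type spread is counted in both SEs. The central spread was 1.83. With the statistics divided by it, 207 genes were called higher and 392 lower. At a difference of at least 1 on the log2 scale 199 were higher and 302 lower.

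**Figure D1:**
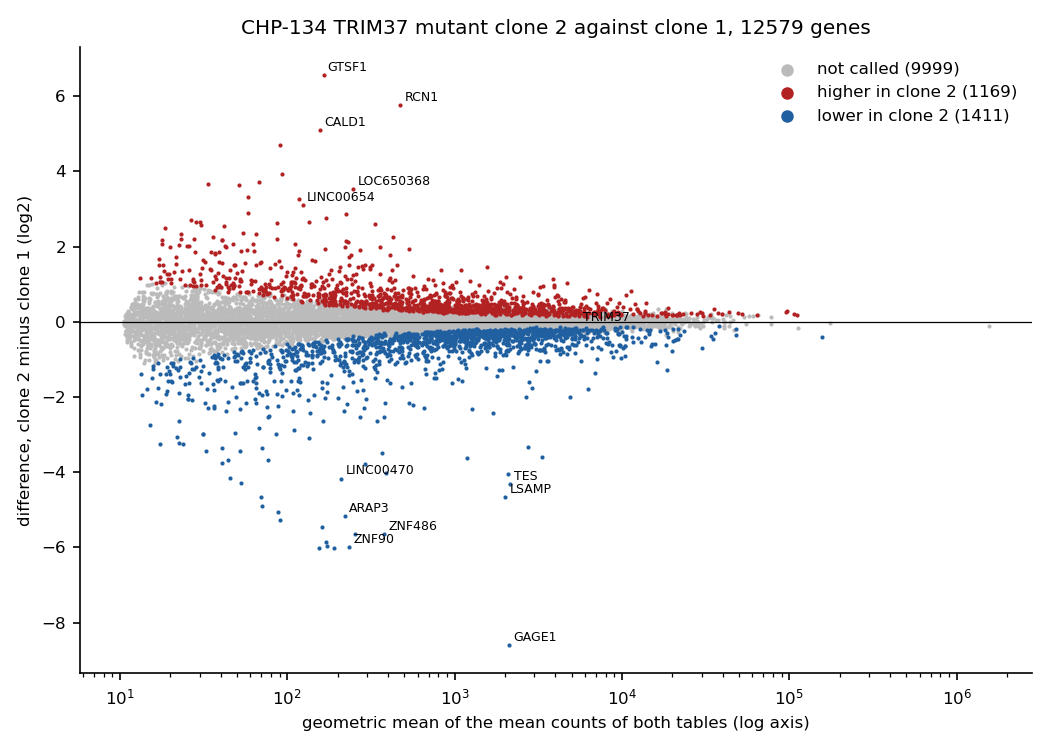
The difference between clones (log2, vertical axis) is plotted against the geometric mean of the mean counts in both tables (log axis) for 12579 genes. Called genes are red where clone 2 was higher (1169) and blue where it was lower (1411), and among the labelled genes GTSF1 stands at 6.55 and GAGE1 at -8.60.

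The targeted gene was below wild type in both clones and was not called between them. TRIM37 stood at a level of 8196 in wild type, 2583 in clone 1 and 2426 in clone 2. The difference between the clones was -0.09 (SE 0.054, 95% interval -0.19 to 0.015, Benjamini-Hochberg adjusted p = 0.252). The direction of each table was set from TRIM37 itself, as the headers name no numerator.

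Among the neuroblastoma markers, HAND2 and MYCN were present in all 3 groups, while TH and DBH were under the count limit. HAND2, a transcription factor of sympathetic neurons, stood at 6822 in wild type, 8335 in clone 1 and 7525 in clone 2 and was not called (difference -0.14, adjusted p = 0.329). MYCN, the oncogene amplified in many neuroblastomas, stood at 43700, 55700 and 43890 and was lower in clone 2 (-0.34, SE 0.089). TH and DBH, the enzymes that begin and end noradrenaline synthesis, had the Status Low, with levels of 4.20, 8.91 and 9.98 for TH and 6.78, 4.10 and 10.1 for DBH.

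Markers of other cells were mostly under the count limit. Among 25 leukocyte and epithelial markers, 21 were Low, and the summed level of the list was 112 in wild type, 150 in clone 1 and 119 in clone 2. CD3D, CD3E, PECAM1 and KRT14 were listed at 0. PTPRC, the pan-leukocyte phosphatase CD45, was the 1 member called, at 46.4, 46.6 and 6.81. Among 22 Schwann cell and fibroblast markers, 12 were Low and the summed level was 5949, 5932 and 4382. SOX10, MBP and POSTN were listed at 0 there, and the lower sum of clone 2 goes with PDGFRA, described below. In bulk RNA, fewer cells of a type and less RNA per cell cannot be told apart.

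The genes with the largest differences were mostly near 0 in clone 2 where clone 2 was lower, and mostly low but detected in clone 1 where clone 2 was higher. These are the 15 largest differences in each direction among the genes called, once those with mean counts under 50 in either table are set aside. In the 15 genes lower in clone 2, the clone 2 level had a median of 2.60 and was under 4 in 11 genes, while clone 1 ranged from 159 to 4273 and wild type from 106 to 2893. In the 15 genes higher in clone 2, the clone 2 level ranged from 151 to 1909, clone 1 from 2.84 to 187 and wild type from 74.5 to 363. A level near 0 has no reliable ratio, so the differences below are on the log2 scale of the tables. The levels show which clone stood below or above the wild type mean. Whether a clone changed or its founder cell already differed was not tested.

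**Figure D2:**
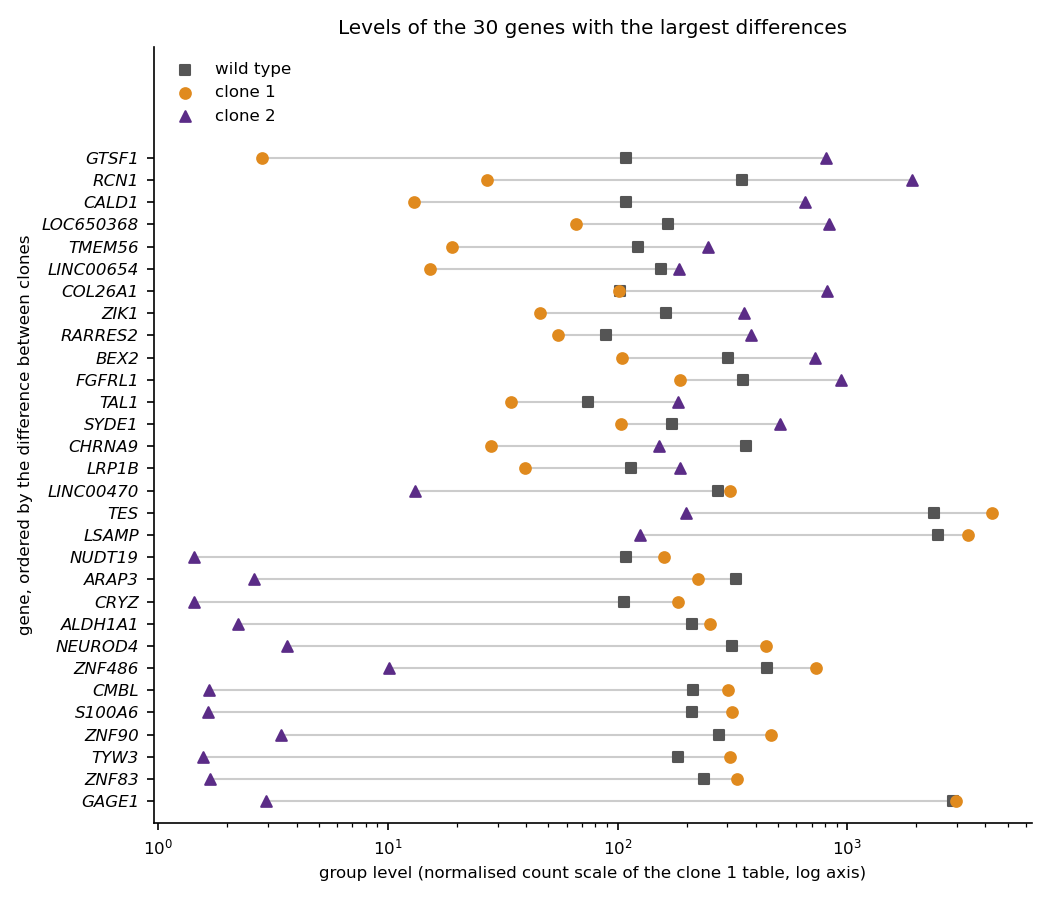
Group levels (normalised counts on the scale of the clone 1 table, log axis) of the 30 genes with the largest differences, with wild type as squares, clone 1 as circles and clone 2 as triangles. The clone 2 triangles lie under 4 in 11 of the 15 lower genes, and wild type lies between the clones in most rows.

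The largest difference among the named genes was in GAGE1, a cancer-testis antigen whose expression is normally limited to germ cells. It stood at 2893 in wild type, 2966 in clone 1 and 2.94 in clone 2 (difference -8.60, SE 0.26, Benjamini-Hochberg adjusted p = 1.3e-235). GAGE genes exist as near-identical copies and the sources used here do not give the counting rule. The value may stand for several copies. Its neighbour among tested genes, PAGE1 of the same antigen class, stood at 668, 94.4 and 5.06 (-3.48, SE 0.26). Both clones were thus below wild type for PAGE1, while clone 1 stood near wild type for GAGE1. Of 75 cancer-testis genes listed, 68 were Low. Of the 7 tested, 1 was higher and 3 lower (57.1% called, against 20.5% over all genes). The others called were TEX14 at -0.41 and TEX15 at 0.46.

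Zinc finger genes, many of them DNA-binding repressors that sit in clusters on chromosome 19, were 3 of the 15 genes most lower in clone 2. The share of such genes among all tested genes was not computed. ZIK1, a zinc finger gene on the same chromosome, was among the 15 largest differences in the other direction (2.75). ZNF90 stood at 276 in wild type, 468 in clone 1 and 3.41 in clone 2 (-5.99, SE 0.29). ZNF486, the next tested gene, stood at 449, 729 and 10.1 (-5.66, SE 0.22). ZNF83, in a cluster farther along, stood at 238, 332 and 1.69 (-6.03, SE 0.32). The genes between and beside them did not all follow. ZNF626 was lower too, at 112, 218 and 24.9 (-2.87, SE 0.25), as was ZNF93 by less, at 455, 565 and 398 (-0.50, SE 0.116). ZNF682 (0.04, SE 0.135) and ZNF737 (0.13, SE 0.182) were not called, and ZNF737 stood at 514, 624 and 684. Paralogs of this family share sequence, and reads could have been split between them by the authors' counting.

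The bases just before the start of these neighbours are given to show how alike they are in genes that parted in clone 2. They are the 100 bases before the start, 5′ to 3′, from NCBI RefSeq on GRCh38.p14, with each CG dinucleotide in capitals. The authors' genome build is not known here.
ZNF90, chr19:20077900-20077999, plus strand: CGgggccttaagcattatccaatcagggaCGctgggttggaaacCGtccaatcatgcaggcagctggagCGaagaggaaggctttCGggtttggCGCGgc
ZNF486, chr19:20167114-20167213, plus strand: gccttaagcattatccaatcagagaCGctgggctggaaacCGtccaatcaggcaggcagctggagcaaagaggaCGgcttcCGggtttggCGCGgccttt
ZNF626, chr19:20661572-20661671, minus strand: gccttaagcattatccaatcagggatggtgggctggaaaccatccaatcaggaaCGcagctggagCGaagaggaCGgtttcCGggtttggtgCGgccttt
ZNF737, chr19:20565782-20565881, minus strand: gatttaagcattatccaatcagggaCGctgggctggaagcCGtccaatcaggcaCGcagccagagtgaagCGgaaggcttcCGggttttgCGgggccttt
ZNF682, chr19:20039506-20039605, minus strand: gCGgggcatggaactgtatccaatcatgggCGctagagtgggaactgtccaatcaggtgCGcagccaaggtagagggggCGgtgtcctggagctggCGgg
Aligned without gaps to ZNF90, the stretch of ZNF486 was identical at 90 of 96 bases (93.8%), that of ZNF626 at 85 of 96 (88.5%) and that of ZNF737 at 83 of 96 (86.5%). ZNF682 was identical at 61 of 99 (61.6%). By this measure ZNF626, which was lower in clone 2, and ZNF737, which was not called, differed by 2 identical bases.

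CRYZ and TYW3 were both near 0 in clone 2. CRYZ encodes a quinone oxidoreductase and TYW3 an enzyme of wybutosine synthesis in transfer RNA, and the 2 genes start back to back on chromosome 1. CRYZ stood at 106 in wild type, 183 in clone 1 and 1.43 in clone 2 (-5.27, SE 0.351). TYW3 stood at 183, 310 and 1.56 (-6.02, SE 0.323). The tested genes on either side, FPGT at -0.24 and LHX8 at 0.07, were not called. The 101 bases between the 2 starts, in the direction of CRYZ and with each CG in capitals, are shown because 1 short stretch lies between both genes.
CRYZ to TYW3, chr1:74733051-74733151, minus strand: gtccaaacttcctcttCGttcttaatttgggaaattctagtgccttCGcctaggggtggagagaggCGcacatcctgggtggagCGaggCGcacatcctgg

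Further genes were near 0 in clone 2, and for S100A6, CMBL, ALDH1A1, NUDT19 and ARAP3 the nearest tested gene on either side was not called. S100A6, a calcium-binding protein of mesenchymal and Schwann-like cells, stood at 212 in wild type, 316 in clone 1 and 1.65 in clone 2 (-5.97, SE 0.325). CMBL, a hydrolase gene, stood at 214, 302 and 1.67 (-5.87, SE 0.326), between CCT5 (-0.10) and MARCH6 (0.08). ALDH1A1, which oxidises retinal to retinoic acid, stood at 211, 252 and 2.22 (-5.46, SE 0.334) between ZFAND5 (-0.03) and RORB (-0.12). NUDT19, a peroxisomal coenzyme A hydrolase, stood at 109, 159 and 1.42 (-5.06, SE 0.36), and ARAP3, a GTPase-activating protein, at 327, 224 and 2.60 (-5.17, SE 0.303). The neurogenic factor NEUROD4 stood at 314, 443 and 3.62 (-5.65, SE 0.337). The long non-coding RNA LINC00470 stood at 273, 309 and 13.2 (-4.17, SE 0.229).

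LSAMP and TES had higher levels in wild type and kept a level above 100 in clone 2. LSAMP, a neuronal adhesion molecule, stood at 2482 in wild type, 3344 in clone 1 and 125 in clone 2 (-4.66, SE 0.126), beside the growth cone gene GAP43, which was also lower. TES, a focal adhesion protein, stood at 2381, 4273 and 199 (-4.33, SE 0.117). It lies in a run of 6 neighbours from MDFIC to ST7 that were all lower in clone 2, with caveolin genes CAV2 at -0.89 and CAV1 at -2.37.

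In the other direction GTSF1 led. GTSF1 is a zinc finger protein of the germline piRNA pathway, and it stood at 109 in wild type, 2.84 in clone 1 and 809 in clone 2 (6.55, SE 0.28, Benjamini-Hochberg adjusted p = 6.67e-118). The next tested gene on one side, the fibronectin receptor subunit gene ITGA5, was higher as well (28.0, 5.40 and 74.2, difference 2.64), and the next on the other side was NEUROD4, which was near 0 in clone 2. RCN1, a calcium-binding protein of the endoplasmic reticulum, stood at 347, 27.1 and 1909 (5.77, SE 0.192). CALD1, which encodes the actin regulator caldesmon, stood at 109, 13 and 656 (5.09, SE 0.239). The neighbours of RCN1 (ELP4 at 0.05 and EIF3M at 0.01) and of CALD1 (BPGM at -0.08 and AGBL3 at -0.07) were not called.

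COL26A1, a collagen gene, differed in another way, with wild type at the level of clone 1 (102 in wild type, 101 in clone 1 and 813 in clone 2, 2.86, SE 0.263). CHRNA9, an acetylcholine receptor subunit, was below wild type in both clones and less so in clone 2, at 363, 28.1 and 151 (2.12, SE 0.193). LINC00654 was below wild type in clone 1 and near the wild type level in clone 2, at 155, 15.3 and 185 (3.10, SE 0.26). The remaining genes on the list were TMEM56 at 3.26, the zinc finger gene ZIK1 at 2.75, the chemerin gene RARRES2 at 2.66, BEX2 at 2.61, FGFRL1 at 2.26, the transcription factor gene TAL1 at 2.20, SYDE1 at 2.15, LRP1B at 2.06 and the uncharacterised LOC650368 at 3.52. SYDE1 and NOTCH3 (1.99) lie close together with ILVBL (0.46) between them, and all 3 were higher.

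The promoters of these genes varied widely in CG content. The RefSeq table of 300 bases around each start (250 before to 50 after) held 13 of the 15 higher and 12 of the 15 lower genes. The median number of CG dinucleotides was 21 (range 5 to 38) in the higher and 15 (range 7 to 33) in the lower genes, against 26 (quartiles 18.5 and 33) in the 9876 tested genes with a promoter in the table, taking the median over a gene's promoters in each case. The E-box CACGTG, which reads the same on both strands, was present in at least 1 promoter of 4 of the 25 genes (16%) and of 12.8% of the 9876. These stretches are shown for S100A6, near 0 in clone 2, and for RCN1 and GTSF1, near 0 or low in clone 1, again as the 100 bases before the start with each CG in capitals.
S100A6, chr1:153535992-153536091, minus strand: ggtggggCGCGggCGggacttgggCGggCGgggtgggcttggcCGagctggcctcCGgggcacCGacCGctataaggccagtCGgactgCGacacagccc
RCN1, chr11:32090974-32091073, plus strand: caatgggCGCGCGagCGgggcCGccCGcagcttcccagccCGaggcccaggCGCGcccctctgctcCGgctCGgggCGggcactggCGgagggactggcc
GTSF1, chr12:54473603-54473702, minus strand: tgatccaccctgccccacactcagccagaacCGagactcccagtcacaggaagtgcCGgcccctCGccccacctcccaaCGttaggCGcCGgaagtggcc
S100A6 held 11 CG dinucleotides in its stretch, RCN1 13 and GTSF1 6.

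Among 3 lists of neuronal genes, more members were called lower than higher in clone 2, though in each of them more members were not called lower than were. Over all genes 11.2% were called lower and 9.29% higher. Of 29 tested genes of the neuronal cytoskeleton and growth cone, 14 were lower and 2 higher (55.2% called, median difference -0.26). GAP43, which marks growing axons, stood at 908 in wild type, 1591 in clone 1 and 498 in clone 2 (-1.64, SE 0.125). NNAT, an imprinted neuronal gene, stood at 20370, 23240 and 9308 (-1.29, SE 0.142), the reticulon gene RTN1 at 5434, 7786 and 3740 (-1.05, SE 0.088), and NEFH, the heavy neurofilament subunit, at 8133, 8828 and 5965 (-0.56, SE 0.056). By level, in each of these clone 1 was above wild type and clone 2 below it. For NNAT the authors' comparison of clone 1 with wild type was not significant (log2 fold change 0.185, SE 0.103). A further 11 members were set aside by the authors' Status Outlier. They were not tested in the main comparison. With Outlier genes kept, 18 of 40 members were called lower and 2 higher, against 1498 lower and 1230 higher of 13358 genes. By level, 9 of the 11 were lower and 2 higher in clone 2 than in clone 1, small gaps included. Among the 9, chosen after their values were seen, were STMN2 (8146 in wild type, 10650 in clone 1 and 620 in clone 2) and DCX (1584, 2236 and 633). The other two were TUBB3 (20130, 26870 and 31560) and DPYSL4 (2420, 3322 and 3593).

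Of 38 tested synapse and vesicle release genes, 16 were lower and 1 higher (44.7% called, median -0.30). SHANK2, a postsynaptic scaffold, was at -0.69 (SE 0.106), DNM1, the neuronal dynamin, at -0.68 (SE 0.083), CPLX2, which clamps vesicle fusion, at -0.64 (SE 0.107) and the calcium sensor SYT1 at -0.43 (SE 0.076). CPLX2 stood at 14950 in wild type, 17080 in clone 1 and 10970 in clone 2, and SYT1 at 4494, 4988 and 3700. With the statistics rescaled to their central spread 4 members were called lower.

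Of 48 tested ion channels and neurotransmitter receptors, 17 were lower and 4 higher (43.8% called, median -0.37). The AMPA receptor subunit gene GRIA4 stood at 434 in wild type, 844 in clone 1 and 248 in clone 2 (-1.74, SE 0.116). Among the members higher in clone 2 were CHRNA9 and the potassium channel gene KCNN1, at 346, 428 and 676 (0.65, SE 0.152). With the statistics rescaled 6 members were called lower.

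The secretory granule genes moved apart. Of 10 tested catecholamine and granin genes 4 were lower and 2 higher (60% called against 20.5% over all genes, median -0.21). A further 7 were Low and 8 had the Status Outlier. SCG2, a secretogranin of dense-core granules, stood at 1048 in wild type, 2774 in clone 1 and 545 in clone 2 (-2.32, SE 0.097, Benjamini-Hochberg adjusted p = 2.61e-124). SCG3 was at -0.73, the prohormone-processing gene CPE at -0.63 and CHGB at -0.46. CHGA, the granin used as a tumour marker, was higher, at 10260, 13950 and 19630 (0.49, SE 0.119).

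The adrenergic transcription factors were also split, with 3 higher and 5 lower of 17 tested and 8 set aside as Outlier. Of the tested genes 47.1% were called, against 20.5% over all genes, and their median was -0.13. PHOX2A, a homeodomain factor of noradrenergic neurons, stood at 1867 in wild type, 2533 in clone 1 and 1028 in clone 2 (-1.29, SE 0.067). MEIS1 was at -0.64 (SE 0.084) and EYA1 at -0.57 (SE 0.099). ISL1, a LIM homeodomain factor of sympathetic neurons, was higher, at 768, 817 and 1509 (0.89, SE 0.086). By level, 5 of the 8 set aside as Outlier were higher in clone 2 than in clone 1 and 3 lower. Chosen after their values were seen, GATA3 stood at 5635, 6702 and 9633 and INSM1 at 932, 1367 and 850.

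**Figure D3:**
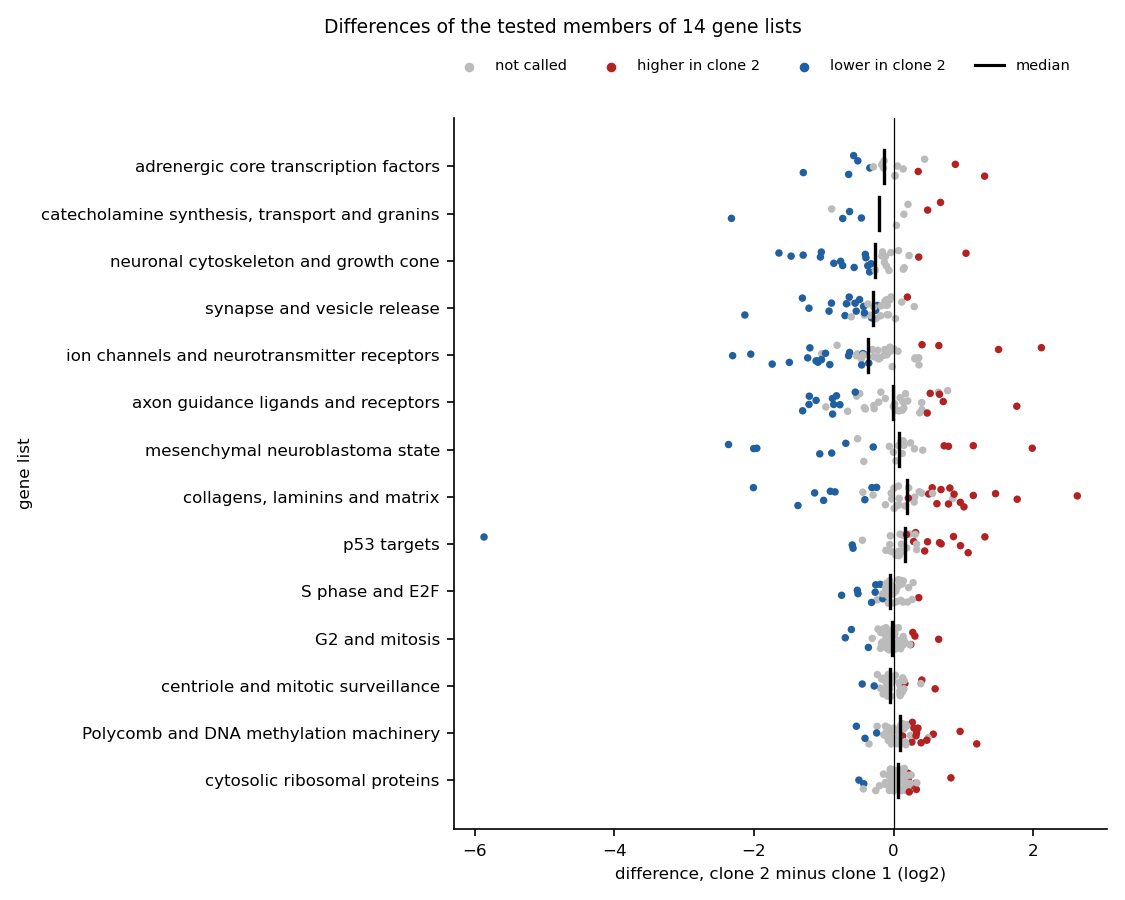
Differences (log2) of the tested members of 14 gene lists, red where called higher in clone 2, blue where called lower and grey where not called, with the median of each list as a black bar. The medians of the cytoskeleton, synapse and ion channel lists lie at -0.26, -0.30 and -0.37, and the members of the G2, centriole and ribosomal lists crowd around 0.

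Mesenchymal genes did not move as a group. Of 25 tested 4 were higher and 7 lower (44% called against 20.5% over all genes, median 0.07). Among those lower was ANXA2, a membrane-binding annexin (3370 in wild type, 3129 in clone 1 and 767 in clone 2, difference -2.0, SE 0.106). CAV1 (-2.37, SE 0.32), ZEB2 (-1.06, SE 0.18) and CAV2 (-0.89, SE 0.19) were lower too. Among those higher were fibronectin FN1 (686, 426 and 953, difference 1.14, SE 0.11), SPARC (0.79, SE 0.071) and NOTCH3 (275, 183 and 772, difference 1.99, SE 0.198). Growth factor receptors and other drivers of neuroblastoma went 6 higher and 4 lower of 24 (41.7% called, median 0.02). Among these PDGFRA, a receptor of mesenchymal and neural crest cells, stood at 1610, 1452 and 110 (-3.62, SE 0.156), while FGFR2 was higher at 163, 124 and 283 (1.14, SE 0.192).

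Matrix genes were called in both directions. Of 42 tested collagens, laminins and other matrix genes 14 were higher and 9 lower (54.8% called, median 0.19). Over all genes 9.29% were called higher and 11.2% lower, 20.5% in either direction. The basement membrane gene NID1 stood at 339 in wild type, 222 in clone 1 and 786 in clone 2 (1.77, SE 0.158). LOX, which crosslinks collagen, was lower at 7798, 8360 and 3220 (-1.37, SE 0.063). Of 48 adhesion genes 5 were higher and 10 lower (31.25% called, median -0.14). ALCAM, an adhesion molecule of growing axons, stood at 6769, 8917 and 2587 (-1.78, SE 0.07), and TSPAN7 at 681, 1379 and 652 (-1.06, SE 0.106). Of 43 axon guidance genes 5 were higher and 10 lower (34.9% called). The receptor gene NRP1 was at -1.30 (SE 0.174), the guidance ligand gene SLIT2 at -1.21 (SE 0.181) and the plexin gene PLXND1 at 0.71 (SE 0.102).

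Of 32 tested p53 targets, 11 were higher and 3 lower in clone 2 (median 0.16), against 9.29% higher and 11.2% lower over all genes. CDKN1A, the cyclin-dependent kinase inhibitor p21, stood at 1220 in wild type, 2618 in clone 1 and 4140 in clone 2 (0.66, SE 0.115, Benjamini-Hochberg adjusted p = 2.24e-07). SESN2, a stress-induced regulator of growth signalling, was at 0.68 (SE 0.11). MDM2, a ubiquitin ligase of the same list, was not called (0.07, SE 0.084). The lower members were CMBL, near 0 in clone 2, ASTN2 at -0.58 (SE 0.097) and ZMAT3 at -0.59 (SE 0.073), and ZMAT3 lies in the chromosome 3 block described below. With the GC trend removed 7 members were called higher, and with the statistics rescaled 2 were.

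The centriole genes, whose assembly TRIM37 is known to touch, held few calls. Of 42 centriole and mitotic surveillance genes 3 were higher and 2 lower (median -0.05), a share of 11.9% called against 20.5% over all genes. PLK4, the kinase that starts centriole duplication, was not called (-0.08, SE 0.083, 95% interval -0.24 to 0.083), nor were USP28 (-0.07, SE 0.079) and CEP192 (0.13, SE 0.094). CEP120 was lower (-0.45, SE 0.083) and CEP350 higher (0.60, SE 0.148). Of 51 G2 and mitosis genes 4 were higher and 3 lower (13.7% called), and of 46 S phase genes 1 was higher and 8 lower (median -0.05). The 19.6% called among S phase genes is near the 20.5% over all genes. The replication helicase subunit gene MCM4 stood at 22330 in wild type, 20090 in clone 1 and 14120 in clone 2 (-0.51, SE 0.097). Of 21 cyclins and their inhibitors 4 were higher and 1 lower (23.8% called), the last being CDK6 at 9902, 9859 and 5097 (-0.94, SE 0.087).

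Single members stood out in further lists that were called in both directions. Over all genes 9.29% were called higher and 11.2% lower, 20.5% in either direction. Of 50 Polycomb and DNA methylation genes 12 were higher and 3 lower (30% called, median 0.10). The largest difference was in the Polycomb ring finger gene PCGF3 (1639 in wild type, 1461 in clone 1 and 3361 in clone 2, difference 1.19, SE 0.089), which lies in a run on chromosome 4. TET1, which oxidises methylcytosine, was at 0.57 (SE 0.107). Of 18 tested homeobox cluster genes 3 were higher and 4 lower (38.9% called). HOXC10 stood at 82.5, 188 and 18.8 (-2.98, SE 0.277) and HOXA13 at 16.3, 9.01 and 58.5 (2.03, SE 0.388). Of 20 retinoic acid genes 1 was higher and 5 lower (30% called, median -0.20). Among the lower were ALDH1A1 and the carrier gene CRABP2 (815, 686 and 330, difference -1.03, SE 0.161). The glutathione transferase gene GSTT1 stood at 62.2, 7.93 and 120 (2.89, SE 0.338). Of 36 TGF-beta and BMP genes 3 were higher and 7 lower (27.8% called). The higher members were FSTL1 at 0.46, BMP7 and SMAD3, and among the lower were the transcriptional regulator genes ID4 at -1.04 and SMAD1 at -0.53. BMP7, a bone morphogenetic protein, stood at 106, 55 and 220 (1.88, SE 0.216), and SMAD3, which carries TGF-beta signals to the nucleus, at 819, 558 and 1138 (1.02, SE 0.094).

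The housekeeping lists were called at 13.8% for ribosomal proteins, 12.5% for oxidative phosphorylation and 25% for the unfolded protein response, against 20.5% over all genes. Of 65 cytosolic ribosomal protein genes 7 were higher and 2 lower (median 0.06), of 64 nuclear oxidative phosphorylation genes 1 was higher and 7 lower (median -0.07), and of 36 genes of the unfolded protein response 2 were higher and 7 lower (median -0.07). In these lists part of the calls lay in the chromosome runs described next. RPL22L1 (-0.50), RPL35A (-0.43), NDUFB5 (-0.74), DNAJB11 (-0.61), SLC33A1 (-0.79) and SSR3 (-0.69) are genes of the chromosome 3 block. RPL23A (9595 in wild type, 9168 in clone 1 and 16340 in clone 2, difference 0.82, SE 0.092) lies in a run on chromosome 17, and ATP5I (0.93, SE 0.134) in one on chromosome 4.

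Along gene order, the distal end of chromosome 3 was lower in clone 2 as a block. Running medians of 25 genes, over those with mean counts of 100 or more, stayed more than 0.4 below 0 from COMMD2 to the last gene, LMLN. Over these 131 genes the median difference was -0.61, with 113 lower and 2 higher, against a median of -0.03 over the rest of the chromosome. In the authors' deposited tables the same genes had a median log2 fold change of 0.01 in clone 1 and -0.57 in clone 2. Over all 164 tested genes of the block 127 were lower and 2, TSC22D2 and ARHGEF26, higher. Over the 562 other tested genes of the chromosome 50 were lower and 47 higher. The block holds genes of unlike function. The mitotic regulator ECT2 stood at 7263 in wild type, 6999 in clone 1 and 4316 in clone 2 (-0.69). The mitochondrial fusion gene OPA1 stood at 9777, 10440 and 6067 (-0.78), the polarity kinase gene PRKCI at 7785, 8115 and 4040 (-0.99) and RFC4, a replication clamp loader subunit, at 3632, 3406 and 2028 (-0.74). FGF12 was the furthest out, at 1898, 2665 and 487 (-2.43). On chromosome 17, running medians more than 0.4 above 0 gave a block from KCNJ12 to SUZ12P1. Over its 45 genes the median difference was 0.19, with 21 higher and 3 lower, against 0.06 over the rest of that chromosome. Over all genes 9.29% were called higher and 11.2% lower. Both blocks were picked by these same differences, so their medians and counts follow in part from that choice.

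Shorter runs were found by counting neighbours called in the same direction. At least 6 neighbouring tested genes were called alike in 21 runs on 8 chromosomes, 14 lower and 7 higher, holding 193 genes, and 8 of the runs were on chromosome 3. The lower runs on chromosome 3 are pieces of the block described above. Those on chromosome 17 lie within the block from KCNJ12 to SUZ12P1, so the runs count these regions again. This search was added after the data were seen. Near the start of chromosome 4, 6 genes from ZNF141 to ATP5I had a median of 0.94 and 7 genes from PCGF3 to MAEA, FGFRL1 among them, one of 1.19. On chromosome 17, 6 genes from KIAA0100 to RPL23A had a median of 0.74 and 9 genes from TLCD1 to SEZ6 one of 0.76. On chromosome 10, 8 genes from CNNM1 to DNMBP had a median of 0.92, and 9 genes from TRUB1 to RAB11FIP2, with the GDNF receptor gene GFRA1 (-0.62), one of -0.69.

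The runs lower in clone 2 included 7 genes from KLHL2 to SH3RF1 on chromosome 4 with a median of -0.63. On chromosome 19, 11 zinc finger genes from ZNF610 to ZNF816, with ZNF83 in their midst, had a median of -2.75 and ranged from -6.03 to -0.78. In the authors' deposited tables the median log2 fold change of these 11 genes was 0.44 in clone 1 and -2.31 in clone 2. The higher runs on chromosomes 4 and 17 had deposited medians, from the authors' deposited tables, of between -0.29 and -0.09 in clone 1 and between 0.64 and 1.1 in clone 2.

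**Figure D4:**
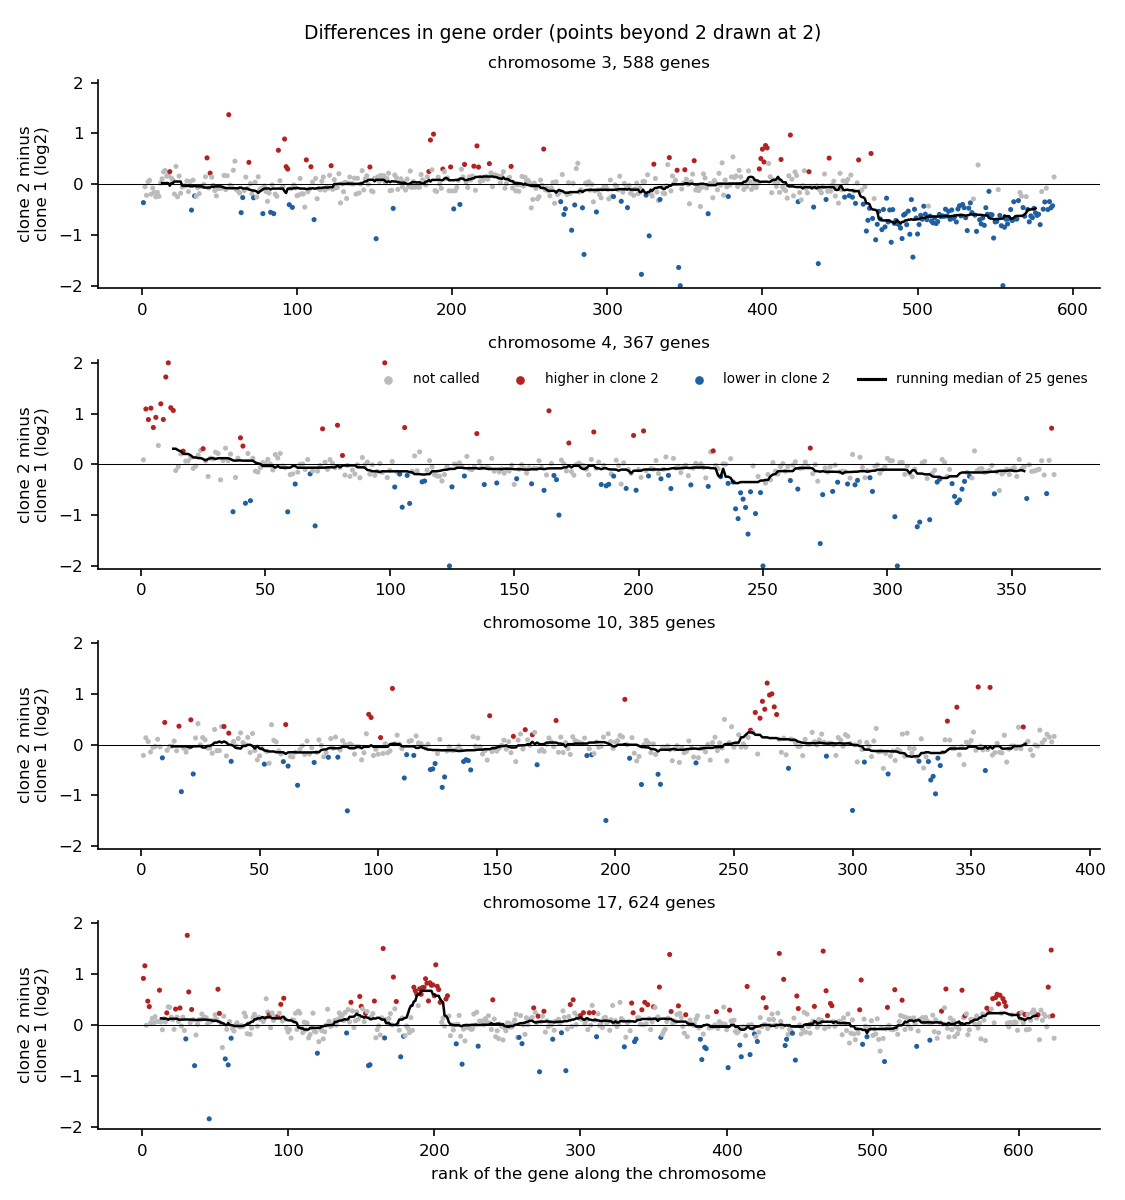
Differences (log2, vertical axis) of genes with mean counts of 100 or more in both tables, in order along chromosomes 3, 4, 10 and 17 (horizontal axis, rank of the gene), with a running median of 25 genes as a black line and points beyond 2 drawn at 2. The last 131 genes of chromosome 3 lie around -0.61, and raised stretches stand at the start of chromosome 4 and on chromosomes 10 and 17.

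Over whole chromosomes the medians were small. Among 9993 genes with mean counts of 100 or more the median was -0.001. Chromosome 19 had the highest median among the larger chromosomes, 0.14 over 591 genes with 101 higher and 19 lower, chromosome 4 stood at -0.09 and chromosome 3 at -0.08. The differences also moved with GC content. The median difference rose over 20 bins of transcript GC content from -0.16 in the lowest bin (35.5% GC) to 0.18 in the highest (65.1% GC). The authors' deposited tables gave medians of -0.07 and 0.24 in those bins for clone 1 and -0.24 and 0.43 for clone 2. With the GC trend removed 958 genes were called higher and 1182 lower, of 12197 with a GC value, and the part of GC content in any one gene's difference was not tested.

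**Figure D5:**
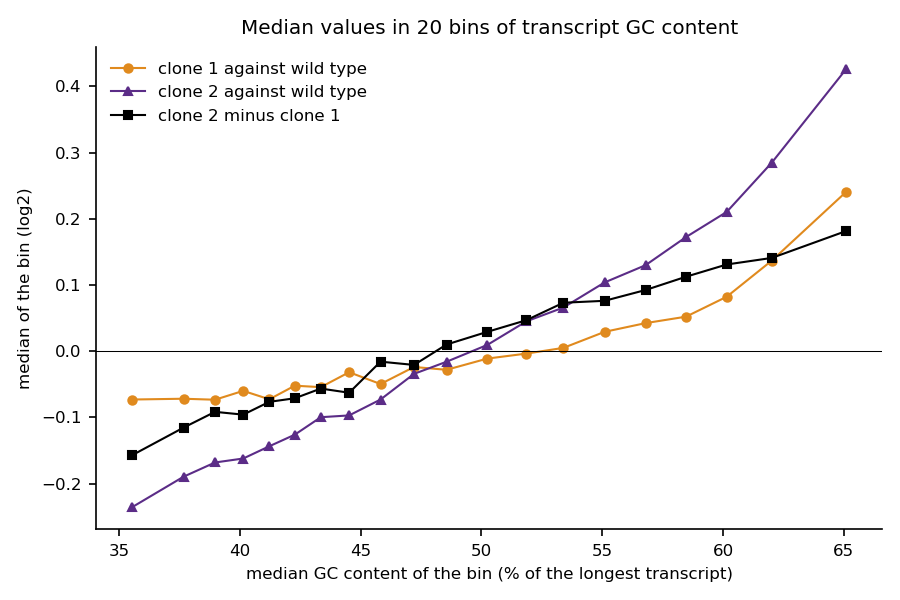
Median values (log2, vertical axis) in 20 bins of genes by GC content of the longest transcript (horizontal axis, percent) for clone 1 against wild type, clone 2 against wild type and the difference between clones. All 3 lines rise with GC content, the difference from -0.16 to 0.18.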

How the data were processed

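The authors used STAR and DESeq2 on the RNA sequencing reads, per the submitters' processing notes, with no versions named. The genome build, annotation, strand setting and counting rule were all not given in the sources used here. Per the file headers, each gene of the authors' deposited tables has a Status, its mean count over the libraries compared, a log2 fold change and SE, and a q value (an adjusted p-value), with 3 significant digits. No file gives the depth per library, and the SE alone sets the precision. Genes with the Status Low or Outlier in either table were set aside, 10352 and 779 genes.

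The difference, its SE, the normal p-value and the Benjamini-Hochberg adjustment were computed with Python 3.11.15, numpy 2.4.6, pandas 2.3.3 and scipy 1.17.1. The code was run on simulated fold changes that were not pulled towards 0. That run does not check the test as applied to the deposited fold changes. The values showed that the deposited fold changes are shrunken towards 0. Wild type levels derived from each table differed by a median of 2.20% in 2453 genes with a mean count under 100 as deposited and by 0.247% with the shrinkage undone from the largest SE of each table (0.286 and 0.36). Group levels use the undone values and differences the deposited ones. The clone 2 table was scaled by 1.06, the median ratio of the wild type levels. Undoing the shrinkage was added after the data were seen, and no label states it.

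The contrast and the 39 gene lists were chosen with earlier results of these data known. Named are TRIM37, the 15 largest differences in each direction among genes called (mean counts of 50 or more in both tables), and up to 4 called members with the smallest adjusted p of each list with at least 3 called. Other genes, such as neighbours, members of runs, markers and genes not called, were picked with their values known. Positions and gene order were matched by symbol from NCBI RefSeq on GRCh38.p14 for 12286 genes (97.7%). The GC content of the longest GENCODE transcript was known for 12197 (97.0%). Alternatives were other thresholds and adjustments, a mean count filter, a rescaled null, other centrings, the Outlier genes kept, the wild type part of the SE taken out and the chromosome 3 block left out. The other 3 tables of the series were not used. Some genes of these lists are not reported here by name.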

Additional observations from a re-analysis of the deposited data

Results flagged for a closer look

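Among the 30 genes with the largest differences, 22 were called in both of the authors' deposited tables with opposite signs, so that the clones stood on opposite sides of wild type. The tables share the wild type libraries and these genes were chosen for a large difference, so the pattern is a description. Higher in clone 1 and lower in clone 2 were ZNF83 (difference -6.03), TYW3 (-6.02), ZNF90 (-5.99), S100A6 (-5.97), CMBL (-5.87), ZNF486 (-5.66), CRYZ (-5.27), NUDT19 (-5.06), LSAMP (-4.66) and TES (-4.33). Lower in clone 1 and higher in clone 2 were GTSF1 (6.55), RCN1 (5.77), CALD1 (5.09), LOC650368 (3.52), TMEM56 (3.26), ZIK1 (2.75), RARRES2 (2.66), BEX2 (2.61), FGFRL1 (2.26), TAL1 (2.20), SYDE1 (2.15) and LRP1B (2.06).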

How the results depend on the processing

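No paired analysis was possible because the files hold no values per library, and for the same reason no library could be left out. Against 1169 genes higher and 1411 lower, the counts were 747 higher at an adjusted p under 0.01, 199 and 302 at a difference of at least 1, 460 and 644 at 1.5-fold, 207 and 392 with the rescaled null, and 323 and 553 by Bonferroni. They were 2203 and 2501 with the shared wild type part taken out and 2142 and 2484 with the shrinkage undone as well. In the neuronal cytoskeleton list (2 higher, 14 lower) the counts were 1 and 5 at a difference of at least 1, 1 and 8 at 1.5-fold, and 0 higher with the rescaled null. In that list 1 member was higher at an adjusted p under 0.01, by Bonferroni, at a mean count of at least 100, with the shrinkage undone and without the chromosome 3 block, and 4 with the wild type part out. In the synapse list (1 higher, 16 lower) 3 were lower at a difference of at least 1, 8 at 1.5-fold and by Bonferroni and 4 with the rescaled null. There 0 were higher in each of those settings, at an adjusted p under 0.01, with the GC trend removed and with chromosome medians removed, and 2 with Outlier genes kept. In the ion channel list (4 higher, 17 lower) the counts were 2 and 10 at a difference of at least 1, 2 and 6 with the rescaled null, 2 and 11 by Bonferroni, and 26 lower with the wild type part out. Among p53 targets (11 higher, 3 lower) 5 were higher at an adjusted p under 0.01, 2 higher and 1 lower at a difference of at least 1, 6 higher at 1.5-fold, 2 with the rescaled null, 3 by Bonferroni and 7 with the GC trend removed. Stricter thresholds and larger or smaller SEs set these counts by construction, and the cause of the GC and chromosome effects was not tested. Of the 162 named genes none changed direction in the alternatives it could enter, which left 160 with the GC trend removed, 151 without the chromosome 3 block and 135 with mean counts of 100 or more. Only the other centrings, among them the GC trend and chromosome medians, and undoing the shrinkage alter a gene's difference. In the rest its direction was fixed in advance. With the rescaled null 46 of the named genes were no longer called, by Bonferroni 31, with the GC trend removed 7 and with chromosome medians removed 4. At a difference of at least 1 it was 86, at 1.5-fold 38 and at an adjusted p under 0.01 10. The depth of the libraries is unknown, so what it limits cannot be given.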

Other observations

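Signalling and stress lists not described above held calls in both directions, several at a share near the 20.5% called over all genes (19.2% for Notch, 20.8% for immediate early and 23.2% for Hedgehog and cilium genes). Of 44 Wnt genes 8 were higher and 6 lower in clone 2 (31.8% called, median 0.10), with the secreted inhibitor gene SFRP5 at -2.99. Of 26 Notch genes 4 were higher and 1 lower (median 0.12), and of 56 Hedgehog and cilium genes 8 were higher and 5 lower (median 0.11), with the receptor gene SMO at 0.87 and the transcription factor gene GLI3 at -0.77. Among immediate early genes 1 was higher and 4 lower of 24, with the phosphatase gene DUSP4 at a level of 30 in wild type, 248 in clone 1 and 94.5 in clone 2 (-1.17). STC2, a secreted glycoprotein, stood at 322, 392 and 62.8 (-2.52), and ABCA1, which exports cholesterol, at 102, 95.2 and 10.7 (-2.54).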
